A study of Mus musculus with 12 samples.

Results

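AY036118 and Gm42418 are 2 long non-coding RNA (lncRNA) transcripts annotated on opposite strands of a small block of chromosome 17 that carries ribosomal RNA (rRNA) sequence. They were taken by symbol from the lncRNA table, in which each has 1 listed transcript, so that the members are 2 of 1432 lncRNA transcripts and of 31315 transcripts in both tables. They were selected on their FPKM in these livers and on its PZH to control difference, so that difference between the groups is given as a description, without a test. The data are liver RNA-seq from 12 male mice, 6 weeks old at the start. The labels give the strain as C57BL/8 and the methods of the study as C57BL/6J. All 12 received CCl4, a solvent that injures hepatocytes, mixed with corn oil and injected into the peritoneum at 10 µl/g, 2 times a week (the labels call the injection CCl4 solvent), and the livers were taken in week 8. The PZH group (6 mice) received Pien Tze Huang (PZH), a traditional Chinese medicine, by the intragastric route every day at 0.25 mg/g. The control group (6 mice) received double distilled water instead. Both groups are therefore fibrosis models, and no liver without CCl4 was analysed here.

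In a mouse cell most RNA is rRNA, which RNA polymerase I transcribes in the nucleolus from long arrays of repeats as a precursor. The precursor is cut and modified into the RNAs of the small and large ribosomal subunits, and spacers and faulty products are degraded by the nuclear exosome. A few fragments of the repeat also lie outside the arrays, and lncRNA annotation holds some of them. Libraries for total RNA are depleted of rRNA before sequencing, as the labels state for these.

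On GRCm38, in GENCODE M21, Gm42418 (ENSMUST00000182010) is a lincRNA with 1 exon of 1831 bases on the plus strand, at chr17:39846958-39848788. AY036118 (ENSMUST00000200021) is a lincRNA with 1 exon of 923 bases on the minus strand, at chr17:39847113-39848035, so 100% of its length lies opposite Gm42418, of which it covers 50.4%. All 923 bases of AY036118 also lie inside CT010467.1, a transcript of 1849 bases that GENCODE annotates as rRNA on the same minus strand, and RefSeq has the 18S rRNA pseudogene Rn18s-rs5 at this place. Gm42418 has 1244 bases inside CT010467.1 and 587 bases past it. Gm26917 (ENSMUST00000192833), a lincRNA with 1 exon of 3329 bases on the plus strand at chr17:39843013-39846341, ends 11 bases before the rRNA. It was not chosen as a member and serves as the neighbour here. The 3 lincRNAs span 5776 bases in all. Their GC content was 54.4% for AY036118, 60.2% for Gm42418 and 69.1% for Gm26917.

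**Figure D1:**
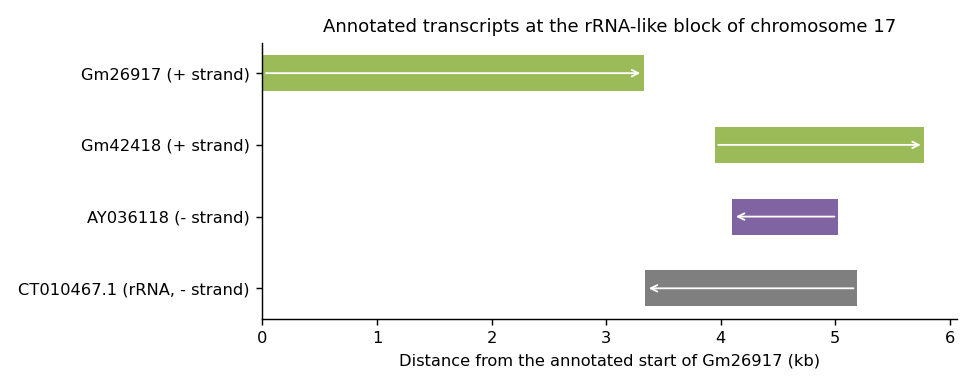
Positions of the 4 annotated transcripts as distance in kb from the start of Gm26917, one row per transcript, with arrows from the 5′ to the 3′ end. AY036118 and the rRNA CT010467.1 run opposite to Gm42418 and Gm26917, and AY036118 lies wholly within both Gm42418 and CT010467.1.

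The sequences below, from the GENCODE M21 transcripts on GRCm38, show why these RNAs are called ribosomal-repeat-like and how the pair is related. The first line holds the first 120 bases of Gm42418 (chr17:39846958-39847077, plus strand), with a motif that is conserved among small-subunit rRNAs in capitals. The next lines hold 1 stretch of 90 bases in the middle of the overlap (chr17:39847529-39847618), first as Gm42418 on the plus strand and then as AY036118 on the minus strand, with the same 30 positions (bases 31 to 60 of each line) in capitals.
Gm42418, first bases: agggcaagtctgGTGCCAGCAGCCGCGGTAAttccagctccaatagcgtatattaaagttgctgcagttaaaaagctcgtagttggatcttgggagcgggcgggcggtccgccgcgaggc
Gm42418, overlap: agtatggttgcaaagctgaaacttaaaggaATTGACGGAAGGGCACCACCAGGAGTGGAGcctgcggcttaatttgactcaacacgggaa
AY036118, overlap: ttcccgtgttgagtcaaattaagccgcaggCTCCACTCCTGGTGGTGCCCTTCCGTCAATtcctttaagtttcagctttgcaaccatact

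The motif GTGCCAGCAGCCGCGGTAA, searched on both strands, starts at base 13 of Gm42418 in the forward direction and is found in CT010467.1 in the reverse direction. These were 2 of the 31308 transcripts searched, a share of 0.00639%. The motif is written in the rRNA direction, so the small-subunit sequence reads forward on the plus strand, that of Gm42418. AY036118 and CT010467.1 are annotated on the opposite strand. The reverse complement of AY036118 is bases 156 to 1078 of Gm42418 with 0 mismatches. A read from this stretch can therefore be given to one or the other only by its strand. The libraries were strand-specific, and the strand setting used in mapping and assembly is not given in the sources used here. Without it, reads of AY036118 and of Gm42418 in the overlap cannot be told apart, and reads of AY036118 could also be divided with the rRNA annotated on its own strand. None of the other 31304 listed transcripts with sequence shared a stretch of 31 bases with AY036118, Gm42418 or Gm26917.

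One further stretch of each of Gm26917 and AY036118 is given. They are shown because they are the end of Gm26917 that faces the rRNA and the 5′ end of the minus-strand transcript. The last 90 bases of Gm26917 (chr17:39846252-39846341, plus strand) and the first 90 bases of AY036118 (chr17:39847946-39848035, minus strand) are all in lower case, since no motif is marked in them.
Gm26917, last bases: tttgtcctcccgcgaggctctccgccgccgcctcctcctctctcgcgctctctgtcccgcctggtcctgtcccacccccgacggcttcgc
AY036118, first bases: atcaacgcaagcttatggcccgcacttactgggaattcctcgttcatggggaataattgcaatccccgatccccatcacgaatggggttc

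Expression is given as FPKM as deposited, a level of fragments that takes account of transcript length and of library size. The tables hold no read counts and the depth per mouse is unknown from them, so no counting interval is given and the precision of each value is the spread between mice. Differences are log2 fold changes on the log2(FPKM + 1) scale, PZH minus control, with the standard error of limma. This scale understates the change of low transcripts and hardly touches the members. In bulk liver, fewer cells of a type and less RNA per cell cannot be told apart.

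AY036118 varied widely from mouse to mouse and was on average higher in the PZH group. Its FPKM in PZH mice 1 to 6 was 3780, 8927, 8132, 12850, 7527 and 1613. In control mice 1 to 6 it was 4969, 4957, 864.5, 997, 816 and 765. PZH 2 to 5 lay above all control mice, while control 1 and control 2 lay above PZH 1 and PZH 6, so the groups overlapped. The other 4 control mice formed a tight low cluster below every PZH mouse. For 11.9% of the lncRNA transcripts the groups did not overlap. The PZH mean of AY036118 was 7138 ± 3969 and the control mean 2228 ± 2120 (SD, n = 6 each), with medians of 7829 and 930.8. The log2 fold change was 1.94 (SE 0.62), a 3.84-fold difference, and it ranged from 1.72 to 2.32 when each mouse was left out in turn.

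Gm42418, the transcript opposite to it, was level. Its FPKM in PZH mice 1 to 6 was 1325, 1569, 1753, 1785, 1724 and 1308, and in control mice 1446, 1546, 1701, 1492, 1674 and 1679. All 6 control values lay within the range of the PZH values. Means were 1577 ± 215 for PZH and 1590 ± 109 for control (SD, n = 6 each), with a log2 fold change of -0.02 (SE 0.09). PZH 1 and PZH 6, the PZH mice with the least AY036118, also had the least Gm42418 of all 12 mice.

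**Figure D2:**
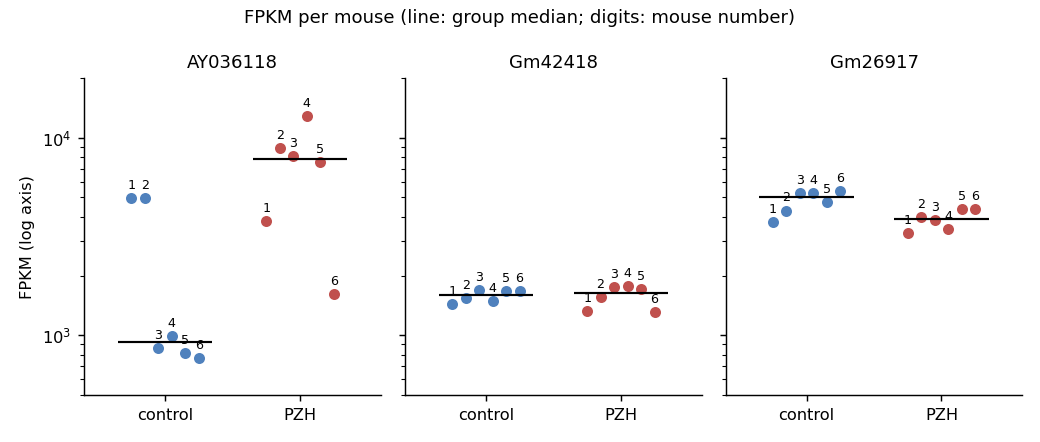
FPKM on a log axis of AY036118, Gm42418 and Gm26917 in each mouse, with control in blue, PZH in red, the mouse number above each point and the group median as a line. AY036118 spreads from 765 to 12850 with control 1 and 2 among the PZH mice, whereas Gm42418 stays between 1308 and 1785 and Gm26917 between 3313 and 5373.

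The ratio of AY036118 to Gm42418, per length, largely restates the values of AY036118, because Gm42418 stayed between 1308 and 1785 FPKM. It was 2.85, 5.69, 4.64, 7.20, 4.37 and 1.23 in PZH mice 1 to 6. In control mice 1 to 6 it was 3.44, 3.21, 0.508, 0.668, 0.487 and 0.456. By the deposited values AY036118 thus exceeded Gm42418 in all 6 PZH mice and in control 1 and control 2. It was below Gm42418 in the remaining 4 control mice. The strand setting is not given, so the ratio may depend on how reads of the overlap were assigned, which was not tested. As a share of the FPKM of the pair, AY036118 took 55.2% to 87.8% in PZH mice and 31.3% to 77.5% in control mice.

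The spread of AY036118 was among the largest of the lncRNA transcripts compared. Its SD on the log2 scale was 1.08 in PZH mice and 1.31 in control mice. Among the 299 lncRNA transcripts at a mean FPKM of 1 or more, the median SD was 0.229 and 0.208, and that of AY036118 exceeded 99.0% of them in PZH mice and 99.3% in control mice. For Gm42418 the SD was 0.203 in PZH mice and 0.0998 in control mice, above 40.8% and 12.04% of these transcripts. The neighbour Gm26917 was similar, with 0.169 and 0.211. Among all 15590 transcripts of both tables at a mean FPKM of 1 or more, AY036118 ranked less high. Its SD exceeded 94.8% of them in PZH mice and 96.7% in control mice. These ranks were not matched for level, and the log2(FPKM + 1) scale narrows the SD of low transcripts.

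Gm26917, which lies beside the rRNA on the strand of Gm42418, had its highest levels in the control group. Its FPKM in PZH mice 1 to 6 was 3313, 3963, 3840, 3460, 4387 and 4390, and in control mice 3731, 4290, 5281, 5287, 4722 and 5373. Control 3 to 6 lay above all PZH mice, and control 1 and control 2, the control mice rich in AY036118, lay within the PZH range. Means were 3892 ± 452 for PZH and 4780 ± 664 for control (SD, n = 6 each). The log2 fold change of -0.29 (SE 0.10) did not pass adjustment over the lncRNA table (limma adjusted p = 0.0664). Without control 1 it was -0.36 (limma adjusted p = 0.0194) and after a median-ratio scale factor per mouse it was -0.11 (limma adjusted p = 0.358). The one other listed transcript within 1 Mb was that of Crisp1, with at most 0.390 FPKM in any mouse (log2 fold change -0.20, SE 0.08, limma adjusted p = 0.108).

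Within the groups the 3 locus transcripts did not follow each other in a way that passed adjustment over the 12 relations tested at the locus (exact permutation over the 720 orders of 6 mice, two-sided). In the PZH group AY036118 and Gm42418 had a Pearson r of 0.89 (exact permutation p = 0.0167, adjusted p = 0.2) and a Spearman rho of 0.83 (exact permutation p = 0.0583, adjusted p = 0.2). In the control group they had an r of -0.72 (exact permutation p = 0.121, adjusted p = 0.264) and a rho of -0.77 (exact permutation p = 0.103, adjusted p = 0.247). The PZH value rested on PZH 1 and PZH 6, the PZH mice lowest in AY036118, without which r was 0.30. Without control 1 and control 2 the control value was -0.85. In the control group AY036118 and Gm26917 had an r of -0.89 (exact permutation p = 0.0361, adjusted p = 0.2) and a rho of -0.77 (exact permutation p = 0.103, adjusted p = 0.247). That relation rested on control 1 and control 2, without which r was 0.18. The same pair had an r of -0.33 in the PZH group (exact permutation p = 0.549, adjusted p = 0.644), and of -0.90 without the 2 farthest mice.

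By FPKM, AY036118 and Gm42418 were among the more abundant of the listed transcripts. By mean FPKM over the 12 mice AY036118 (4683) ranked 3 among all listed transcripts, after those of Alb, the main plasma protein made by hepatocytes (31248), and mt-Co1, a mitochondrially encoded subunit of cytochrome c oxidase (12546). Trf, the iron carrier of plasma (4431), and Gm26917 (4336) came next. The rank of AY036118 was 3 in PZH 2 to 5 and in control 2, and between 40 and 51 in control 3 to 6. Gm42418 ranked between 19 (control 6) and 35 (PZH 1) in single mice. Within the lncRNA table the locus took the first 3 ranks, with Gm42418 at 1583, ahead of the nuclear lncRNAs Malat1 (957.8) and Neat1 (62.3).

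AY036118 alone made up 16.8% to 62.9% of the summed FPKM of the lncRNA table in the PZH group (median 48.3%) and 7.64% to 40.5% in the control group (median 9.12%). Together with Gm42418 and Gm26917 it made up 76.0% to 88.6% in PZH mice and 75.1% to 82.7% in control mice. A total over the lncRNA table is therefore largely a total over this locus. Of the summed FPKM of both tables, AY036118 and Gm42418 took 1.34%, 3.06%, 2.81%, 4.07%, 2.67% and 0.819% in PZH mice 1 to 6. They took 1.86%, 1.88%, 0.750%, 0.742%, 0.732% and 0.710% in control mice 1 to 6. The mean share was 2.46% ± 1.19 for PZH and 1.11% ± 0.588 for control (SD, n = 6 each), with overlap. FPKM gives short transcripts more weight than the fragments they take. Multiplied by transcript length, the members took 0.388% to 1.51% of mapped fragments in PZH mice and 0.365% to 0.741% in control mice, and all listed transcripts took 78.9% to 82.4%.

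Removing the members changed the scale of the other transcripts by a few percent at most. When each mouse was brought to the same total without the members, in place of with them, the values of all other transcripts rose by 1.36%, 3.16%, 2.89%, 4.24%, 2.74% and 0.826% in PZH mice 1 to 6. In control mice the rise was 1.90% and 1.92% in mice 1 and 2 and 0.715% to 0.756% in mice 3 to 6. On the log2 scale the mean rise was 0.0360 ± 0.0176 for PZH and 0.0162 ± 0.00859 for control (SD, n = 6 each). Counted by fragments the rise was smaller, 0.390% to 1.54% in PZH mice and 0.367% to 0.746% in control mice. In each mouse the summed FPKM of all other transcripts was 332649 to 375694 in PZH mice and 333053 to 341757 in control mice. The group means differed by 9474 (2.80%), within the spread between mice (two-sided exact permutation test over all labellings of the mice, p = 0.159, adjusted p = 0.25 over 13 single-value tests, n = 6 per group), although without PZH 2 it was 12488 (exact permutation p = 0.0238) and without PZH 1 it was 3879 (exact permutation p = 0.312).

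**Figure D3:**
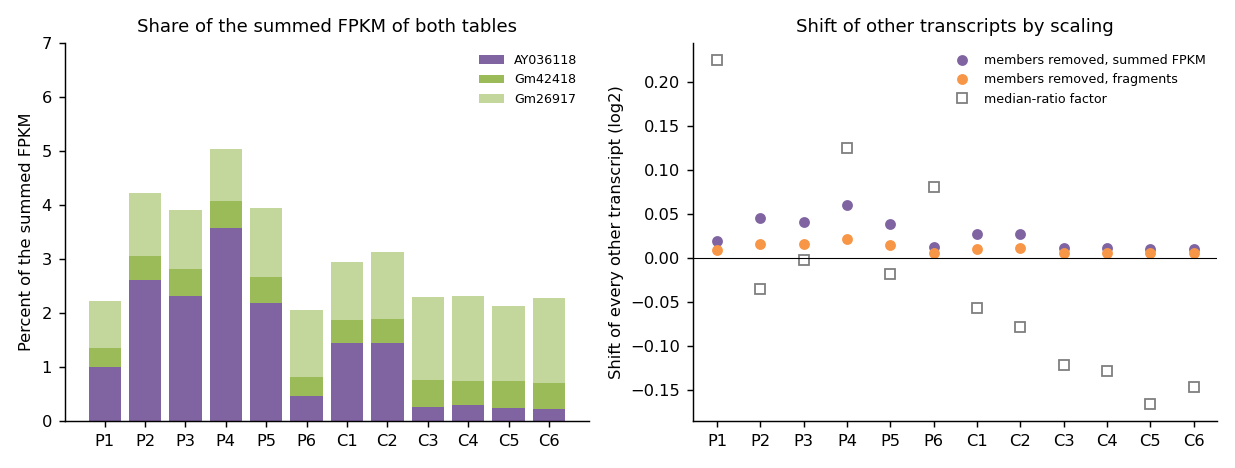
Left, percent of the summed FPKM of both tables taken by AY036118, Gm42418 and Gm26917 in each PZH (P1 to P6) and control (C1 to C6) mouse. Right, log2 shift of every other transcript on removal of AY036118 and Gm42418, by summed FPKM or by fragments, with the shift given by a median-ratio factor as open squares; removal moves a mouse by at most 0.0600, less than the median-ratio factor moves PZH 1 or control 3 to 6.

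The group difference in the protein-coding median of log2(FPKM + 1) kept its direction when the members were taken out. The median was lower for PZH by 0.0917 as deposited, with values of 0.826 to 0.962 in PZH mice and 0.960 to 1.04 in control mice (exact permutation p = 0.00649, adjusted p = 0.0141). With the members removed and equal sums the difference was -0.109 (0.906 ± 0.0801 and 1.01 ± 0.0316, SD, n = 6, exact permutation p = 0.00649, adjusted p = 0.0141). With equal sums and the members kept it was -0.119 (exact permutation p = 0.00433, adjusted p = 0.0141). Division by 1 minus the members' fragment share gave -0.0888 (exact permutation p = 0.00649, adjusted p = 0.0141). After the median-ratio factor it was -0.0058, near 0 by construction, since that factor sets the typical transcript equal between mice. For lncRNA transcripts the difference was 0.0246 as deposited (exact permutation p = 0.173, adjusted p = 0.25) and 0.0162 with the members removed (exact permutation p = 0.483, adjusted p = 0.558). It was 0.0336 with the members and PZH 1 removed (exact permutation p = 0.0476), and 0.0663 with the median-ratio factor (exact permutation p = 0.00216, adjusted p = 0.0141).

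The differentially expressed transcripts (DETs) stayed largely the same. A DET is here a transcript with an absolute log2 fold change of at least 1 and an unadjusted limma p under 0.05, the criteria of the study. As deposited, 966 of 29883 protein-coding transcripts were DETs (3.23%), 372 higher and 594 lower in the PZH group. With the members removed there were 992 (3.32%), 350 higher and 642 lower, of which 944 were shared, 22 were lost, 48 were gained and 0 turned direction. Most of this came with the step to equal sums, because equal sums with the members kept gave 1015 DETs, and removal from there lost 34 and gained 11. By fragment share there were 963 DETs, 958 of them shared with the deposited values. Removal of the members with the step to equal sums shifted single log2 fold changes by at most 0.0459, against at most 0.182 for the median-ratio factor, which gave 932 DETs with 540 higher and 392 lower, 764 of them shared.

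The transcripts that crossed the limits lay close to them. Of those lost on removal, the largest changes were in a transcript of Ptk2b, a cytoplasmic tyrosine kinase (log2 fold change 1.23 before, 1.22 after), of Eif4g1, a scaffold of translation initiation (1.06 before, 1.03 after), and of Fmo4, a flavin-containing monooxygenase (1.03 before, 0.997 after). Of those gained, they were in Gm4070 (-1.12 before, -1.15 after), Atxn1l (-1.09 before, -1.12 after) and Rbm42, an RNA-binding protein (-1.02 before, -1.05 after). None of these except Fmo4 (limma adjusted p = 0.00334) had passed Benjamini-Hochberg adjustment. Of the 1432 lncRNA transcripts 23 were DETs (1.61%). AY036118 was among them and Gm42418 was not, from which nothing is read because both were chosen with this contrast in view. After removal with equal sums there were 25 (1.75%), made up of the 22 others and 3 gained. Equal sums with the members kept had gained 5, and removal from there lost 2 and gained 0.

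The genes that make rRNA were lower in the PZH group, while AY036118 was on average higher and Gm42418 was level. Whether these genes and the locus transcripts are linked was not tested. Gene values were the summed FPKM of a gene's protein-coding transcripts. Over all 14179 genes 12.7% were higher with PZH and 32.2% lower at a limma adjusted p under 0.05, with a median log2 fold change of -0.11. In the list of RNA polymerase I transcription 14 of 16 genes were lower and 0 higher (median -0.49), and in the list of rRNA processing and modification 77 of 85 were lower and 0 higher (median -0.59). In the list of the nuclear exosome and rRNA decay 8 of 15 were lower and 0 higher (median -0.25). The genes of this list are called exosome genes below for short. After the median-ratio factor, which moved the median of all genes to -0.01, the counts were 11, 61 and 5 genes lower, beside 20.1% of all genes, and the 5 exosome genes are 33.3% of their list. Without control 1, control 2 and PZH 6 they were 11, 69 and 7, beside 25.7% of all genes.

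Polr1e, a subunit specific to RNA polymerase I, had an FPKM of 1.19 to 1.87 in PZH mice and 2.68 to 4.48 in control mice (log2 fold change -0.86, SE 0.10, limma adjusted p = 5.15e-05). Polr1c, a subunit shared by polymerases I and III, was at 9.57 ± 1.15 for control and 5.32 ± 1.35 for PZH (SD, n = 6 each, log2 fold change -0.76). Taf1d, part of the selectivity factor of polymerase I, changed by -0.81 and was listed at 0 in 3 PZH mice. Among processing factors, Rrp9, a protein of the U3 particle, had an FPKM of 1.38 to 1.99 in PZH mice and 3.93 to 5.98 in control mice (log2 fold change -1.09, SE 0.10, limma adjusted p = 1.3e-05). For Rrp9 and Polr1e the groups did not overlap. Both were named as among the largest falls of their lists, so nothing is read from this. Rrp12 changed by -1.08 (SE 0.13). Nop56, a core protein of box C/D particles that guide rRNA methylation, changed by -1.34 (SE 0.33), and its values in PZH 1 (13.4) and PZH 2 (11.97) lay above that of control 3 (9.28). In the exosome list the largest falls were those of Exosc8 (-0.77), the nuclease Dis3 (-0.64) and Exosc1 (-0.62).

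The summed FPKM of each of these lists did not overlap between the groups. It was 61.1 to 75.9 in PZH mice and 92.4 to 118.7 in control mice for polymerase I transcription, and 497 to 629 and 749 to 943 for rRNA processing. The share of all genes without overlap was not counted, so the absence of overlap only describes these lists. Control 1 and control 2, with high AY036118, had 108.6 and 97.8 for polymerase I transcription and 918 and 824 for rRNA processing, within the range of the other control mice. After subtraction of group means, the Pearson r of AY036118 with the single genes, over the 12 mice, had a median of -0.00 for the 14 polymerase I genes with a mean FPKM of at least 1, 0.07 for 83 processing genes and 0.21 for 14 exosome genes, beside -0.04 for 10944 genes. These values come from genes measured in the same mice and carry no p.

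**Figure D4:**
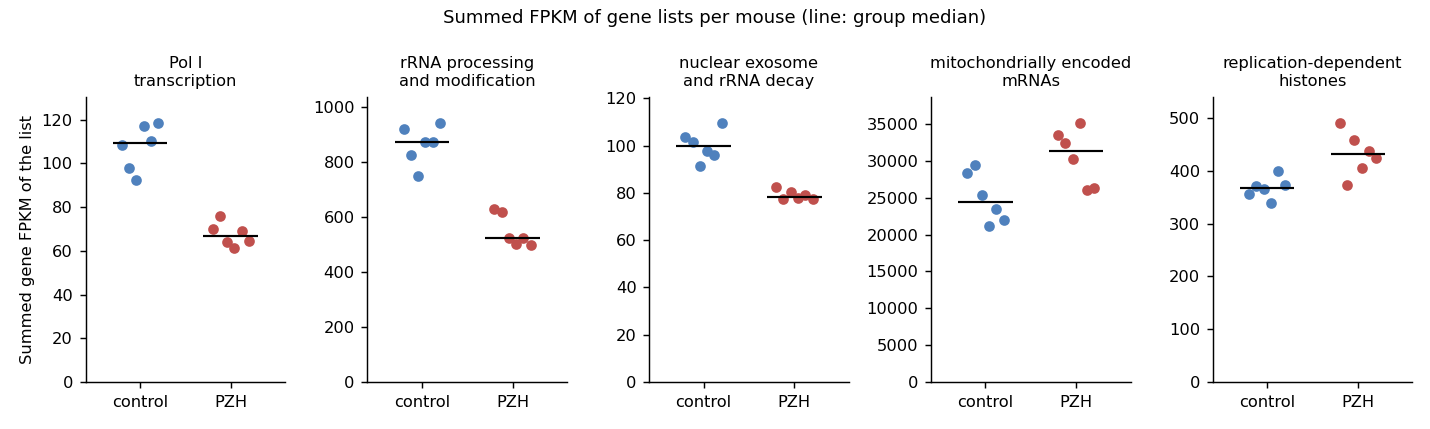
Summed gene FPKM of 5 gene lists in each mouse, with control in blue, PZH in red and the group median as a line. The lists of polymerase I transcription, rRNA processing and the exosome are lower in all PZH mice than in any control mouse. The mitochondrial mRNAs and the histones overlap between the groups. How many of all genes show no overlap was not counted.

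Other abundant or unusual RNA classes were looked at beside the locus. Histone mRNAs of the replication-dependent type end without a poly(A) tail, and 33 of 63 were higher with PZH and 2 lower at a limma adjusted p under 0.05 (median log2 fold change 0.43). The largest rises were those of Hist1h2af (log2 fold change 1.52, SE 0.19, limma adjusted p = 6.7e-05), Hist1h3c (1.47) and Hist1h3g (1.18), at mean levels of 3.22 to 7.02 FPKM in the PZH group. The 2 that were lower were Hist1h1c, a linker histone (-0.43), and Hist1h2bc (-0.26). Without control 1, control 2 and PZH 6, 25 were higher and 1 lower. Histone genes are near-identical copies, so reads can be divided among them and values of single genes are uncertain. Of 82 cytosolic ribosomal proteins 2 were higher and 15 lower, a count that was not stable. These shares are 2.44% and 18.3%, below the 12.7% and 32.2% of all genes. The count was 29 lower with AY036118 and Gm42418 removed and equal sums, both steps together, 39 lower without PZH 1 and 2 lower after the median-ratio factor.

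The mitochondrially encoded mRNAs are described beside AY036118 mouse by mouse. The 13 genes had a summed FPKM of 33528, 32443, 30226, 35214, 25996 and 26306 in PZH mice 1 to 6, and of 28400, 29505, 25327, 21159, 23543 and 21996 in control mice 1 to 6. Control 1 and control 2 were thus the highest control mice here as well, and PZH 4 was the highest PZH mouse by both measures. PZH 1 came next for the mitochondrial mRNAs but had the lowest AY036118 after PZH 6, and PZH 5 was the lowest PZH mouse for the mitochondrial mRNAs with an AY036118 of 7527. With group means subtracted, r with AY036118 over the 12 mice was 0.331 to 0.878 for the 13 genes, with a median of 0.799 and 13 of 13 above 0, beside a median of -0.04 for all genes. The median r was 0.119 with Gm42418 and -0.77 with Gm26917. Within the PZH group the median r with AY036118 was 0.746 and within the control group 0.858. Without control 1, control 2 and PZH 6 it was 0.312, with 10 of 13 above 0. The 13 genes were measured in the same mice and are not 13 independent observations, so these counts carry no p.

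By the summed level, tested within groups with values seen beforehand, AY036118 had an r of 0.87 with the mitochondrial mRNAs in the control group (rho 0.60, exact permutation p = 0.0444 and 0.242, adjusted p = 0.2 and 0.446) and of 0.51 in the PZH group (rho 0.54, exact permutation p = 0.287 and 0.297, adjusted p = 0.446 for both). Without the 2 farthest mice, control 1 and control 2, the control value was -0.29. For Gm26917 r was -0.91 in the PZH group (rho -0.83, exact permutation p = 0.0306 and 0.0583, adjusted p = 0.2 for both) and -0.81 in the control group (rho -0.83, exact permutation p = 0.0681 and 0.0583, adjusted p = 0.204 and 0.2). Without the 2 farthest mice these were -0.90 and -0.26. None of the 12 relations passed adjustment.

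**Figure D5:**
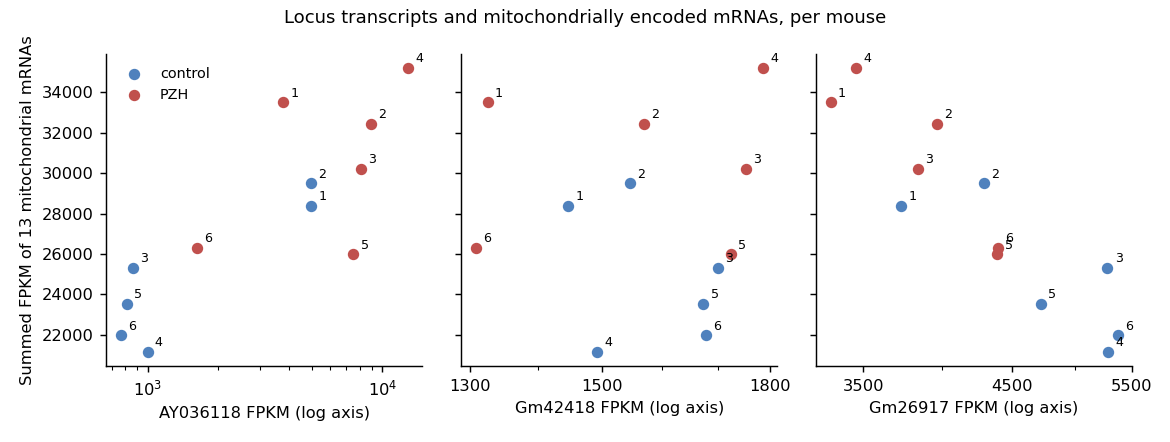
Summed FPKM of the 13 mitochondrially encoded mRNAs against the FPKM of AY036118, Gm42418 and Gm26917 (log axes) in each mouse, control in blue and PZH in red, with mouse numbers. Control 1 and 2 lie at high AY036118 and at 28400 and 29505 for the mitochondrial mRNAs, above the other 4 control mice, and points run downwards for Gm26917.

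As a group contrast, 4 of the 13 mitochondrial genes were higher in the PZH group and 0 lower at a limma adjusted p under 0.05, beside 12.7% higher among all genes. The largest were mt-Atp8 (log2 fold change 0.44, SE 0.16, limma adjusted p = 0.0386) and mt-Atp6 (0.44, SE 0.17, limma adjusted p = 0.0499), both subunits of ATP synthase whose genes overlap, and mt-Co1 (0.31, SE 0.10, limma adjusted p = 0.023). Their values overlapped between the groups. In the fit of single transcripts mt-Atp6 and mt-Co1 did not pass (limma adjusted p = 0.106 and 0.0535). The count depended on single mice and on scale. It was 0 without PZH 4, control 4 or control 5, 1 without PZH 1, PZH 2, PZH 3, control 3 or control 6, and 8 without control 2. It was 1 with the members removed and equal sums and 12 after the median-ratio factor. It was also 12 without control 1, control 2 and PZH 6, but these mice were left out for their AY036118 values and hold the highest control and nearly the lowest PZH levels of these mRNAs, so that count is no support.

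The transcripts most like AY036118, by Pearson r of log2(FPKM + 1) with group means subtracted over the 12 mice and a mean FPKM of at least 1, were given by the order of r alone. Among lncRNA transcripts they were those of Gm46430 (r = 0.80), Gm39157 (0.68), D930016D06Rik (0.67), Gm48604 (0.67) and 1300002E11Rik (0.65), all at a mean of 1.13 to 3.07 FPKM. Among protein-coding transcripts they were 1 transcript each of Myrf, a membrane-bound transcription factor (0.91), Acin1, a protein of the exon junction complex (0.89), mt-Atp6 (0.88), mt-Nd4 (0.88) and mt-Nd2 (0.87), the last pair subunits of complex I. Over all 15588 transcripts the median r was -0.03, and the range from the 5th to the 95th percentile was -0.52 to 0.47. Of these, 19 reached 0.8 and 23 were at -0.8 or below, with a lowest r of -0.94 and a highest of 0.91. Among these named transcripts D930016D06Rik differed between the groups in the direction opposite to AY036118 (log2 fold change -0.45, SE 0.08, limma adjusted p = 0.00144). The other 4 lncRNA transcripts did not pass adjustment (limma adjusted p = 0.056 to 0.946).

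The hepatocyte markers of the labelled tissue were high in every mouse, and their summed level differed between the groups. The summed FPKM of 6 hepatocyte markers was 40124 to 55932 in PZH mice and 21834 to 35456 in control mice, without overlap. No share of all genes without overlap was counted beside it. At a limma adjusted p under 0.05, 4 of 6 were higher (Alb, Ttr, Cps1 and Cyp2e1) and 1 lower (Hnf4a). The counts of the other marker lists are to be read against 12.7% higher and 32.2% lower among all genes, and their summed levels overlapped between the groups. Of 8 macrophage markers 3 were higher and 1 lower (summed FPKM 357 to 556 and 327 to 436). Of 8 stellate cell and fibroblast markers 1 was higher and 2 lower (257 to 326 and 205 to 304), and of 6 endothelial markers 2 were lower (77.2 to 99.9 and 88.2 to 101). Of 5 cholangiocyte markers 1 was lower (66.9 to 133 and 96.9 to 161) and of 6 erythroid markers 1 was higher (564 to 1260 and 777 to 1155). Of 6 neutrophil markers (5.87 to 128 over all mice) and 7 lymphocyte markers (2.31 to 4.73 and 2.28 to 4.54) 0 passed, and Ly6g, Mpo, Elane and all 7 lymphocyte markers had a mean FPKM under 1. With group means subtracted, the median r of AY036118 was -0.13 with the hepatocyte markers, -0.02 with the macrophage markers and -0.18 with the stellate markers. It was 0.23 with the endothelial markers, of which 6 of 6 were above 0. For 5 erythroid and 3 cholangiocyte markers at a mean FPKM of at least 1 it was -0.36 and -0.15, with 0 above 0 in each. For 3 neutrophil markers it was -0.03, beside -0.04 for all genes. The part of cell makeup, of the rRNA depletion step and of RNA quality in the levels of AY036118, Gm42418 and the rRNA genes was not tested.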

How the data were processed

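Libraries of 12 livers, strand-specific and depleted of rRNA, were read by the authors at 150 bp. They trimmed reads with Trimmomatic, mapped them with HISAT2 2.1.0 to GRCm38 and assembled them with StringTie 1.3.5 on Ensembl release 95. The authors deposited FPKM per transcript and mouse in a protein-coding and an lncRNA table, which were used on the log2(FPKM + 1) scale without a filter. The members, the gene lists and the tests were chosen with earlier results of these data known. Named genes followed a rule: the members, listed transcripts within 1 Mb, the 5 lncRNA and 5 protein-coding transcripts most correlated with AY036118, the 5 most abundant transcripts, up to 3 rises and 3 falls per gene list (ribosomal proteins excepted) and the 3 largest DETs lost and gained on removal. Malat1 and Neat1 were named after their values were seen.

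The tables were fitted apart with limma 3.58.1 in R 4.3.3, and tested on simulated data. GENCODE M21 held 1431 lncRNA and 29876 protein-coding transcripts. Fragments were taken as FPKM times length. Python 3.11.15 (pandas 2.3.3, numpy 2.4.6, scipy 1.17.1, matplotlib 3.10.9) did the rest. The labels do not say more of how mice were housed or processed, so p-values measure the spread between these mice, and no batch is given. Other settings tried were a filter at a mean FPKM of 1, a pseudocount of 0.1, a variance trend, other scalings, a replicate block and leaving out single mice.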

Additional observations from a re-analysis of the deposited data

Results flagged for a closer look

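Among the summed levels of the locus transcripts and gene lists, the spread within each group of 6 mice was checked for a single mouse far from the rest, which chance alone gives in about 1 of 20 groups. In 3 cases a mouse stood apart, and none concerned AY036118 or Gm42418. The summed FPKM of the cytosolic ribosomal proteins was 10763 in PZH 1, above the other PZH mice (6774 to 7840). The summed FPKM of the neutrophil markers was 127.6 in PZH 3 and 47.77 in control 4, against group medians of 10.5 and 18.3.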

How the results depend on the processing

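The log2 fold change of AY036118 kept its direction under every alternative run. That of Gm42418 lay between -0.06 and 0.03 with each mouse left out and was 0.16 after the median-ratio factor. Both were selected on this difference, so these values describe it and are no support for it. With a pseudocount of 0.1 the DETs were 2981 as deposited and 3059 with the members removed in the protein-coding table, and 209 and 210 in the lncRNA table. The cause was not tested. After the median-ratio factor the protein-coding median difference was -0.0058 and the lncRNA one 0.0663, and 5 exosome genes were lower. The factor itself sets typical transcripts equal between mice. Without PZH 1 the lncRNA difference was 0.0336, and without PZH 2 the summed FPKM of the other transcripts differed by 12488. With each mouse left out, the ranges were 0.00696 to 0.0336 and 3879 to 12488 for these, 886 to 1100 and 897 to 1129 for protein-coding DETs, and 21 to 31 and 21 to 29 for lncRNA DETs, as deposited and with the members removed. Without control 1, control 2 and PZH 6, chosen after seeing the data, protein-coding DETs were 1028 and 1056, and lncRNA DETs 23 and 27. Removing Gm26917 as well, also added then, gave 995 and 25.

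Mice with the same number had an r of -0.0171 to 0.0374 over protein-coding transcripts and of -0.120 to 0.320 over lncRNA transcripts. The 0.320 was that of number 6, whose mice matched each other best there. Over protein-coding transcripts PZH 5 and control 6 also matched best with their own number. A general pairing by number was not seen, but this check cannot exclude one. With the replicate number as a block the DETs were 976 and 1008, and 23 and 25, and the adjusted p of Gm26917 was 0.0463 (limma). The FPKM tables carry no counts, so the error of a single value is not known.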
